A study of Bos taurus with 20 samples.

Results

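The comparison described here sets estrus against the late luteal phase of the cow's cycle. It covers 8 of the 20 libraries of the series, chosen by their labels: 4 from day 0 (estrus, NB0_1 to NB0_4) and 4 from day 14 (NB14_1 to NB14_4). Each library is poly(A) RNA from an endometrial biopsy of 1 animal. All animals of both days were virgin Holstein heifers, sexually mature, non-lactating, at least 7 months old and at least 340 kg. All had received the same synchronization, known as five-day Co-synch. It began with a GnRH analog (Fertagyl, 100 μg) and an intravaginal progesterone device (Eazi-Breed, 1.38 g). A prostaglandin F2α analog (Estrumate, 500 μg) was injected at 96 hours and again at 120 hours, when the device was removed. Animals were then allotted at random to day 0, 5, 10, 14 or 18, and no heifer was left unsynchronized. The synchronized heifer, given exogenous hormones, is therefore the model on both days.

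The endometrium lines the uterus and has a luminal epithelium, glands that open into the lumen and a stroma beneath them. Around estrus, estradiol from the ovarian follicle acts on this tissue through its nuclear receptor and is known to drive proliferation and fluid secretion. After ovulation the corpus luteum secretes progesterone, which is known to turn the glands towards the secretions that nourish an early embryo. In cattle day 14 lies late in this progesterone phase, before the corpus luteum regresses in a cycle without pregnancy. Which transcripts differ between these opposite hormonal states is the question that the comparison addresses. Hormone levels were not analysed here.

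Counts are given per Ensembl gene ID, 27607 in each library, and 5578 of these had no count in any of the 8 libraries. The day 0 libraries held 22730313 to 26644679 counts in total, and the day 14 libraries 21610300 to 24589873. The IDs were not paired with gene names here, since 0 of them matched the name table used. Genes are therefore described in groups and by ID, and neither the tissue nor its cell types were checked against marker genes. In a bulk biopsy, fewer cells of a type and less RNA per cell cannot be told apart. That limit applies to every fall and rise below.

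The libraries of each day resembled each other more than those of the other day. Across the 16947 IDs tested, correlations of log2 CPM (counts scaled to a common library size and composition) were 0.967 to 0.975 within day 0. They were 0.940 to 0.980 within day 14 and 0.895 to 0.927 between the days. Genes are not independent replicates, so these values only describe the libraries. Day 14 replicate 4 stood apart from its day: 16.2% of IDs differed by more than 2-fold from the mean of the other 3 libraries. For day 14 replicates 1, 2 and 3 this share was 6.12%, 7.80% and 3.42%, and for the day 0 libraries it ran from 5.29% to 8.05%. The number of calls, the share of the most abundant IDs and the tests of the named IDs are therefore also given without day 14 replicate 4. The median gene had an SD of log2 CPM of 0.280 over the 4 libraries of day 0 and 0.300 over those of day 14. Days 5, 10 and 18 had medians of 0.315, 0.460 and 0.550.

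Between estrus and day 14, 1234 genes were higher and 1428 lower on day 14. These calls come from the edgeR quasi-likelihood test with all 20 libraries in the fit, at a Benjamini-Hochberg adjusted p below 0.05. They make up 15.7% of the tested IDs, 7.28% higher and 8.43% lower. The median change of a called gene was 2.43-fold upward (log2 fold change 1.28) or 2.24-fold downward (log2 fold change -1.17). Changes under 2-fold made up 34.4% of the higher and 41.2% of the lower genes. At the other end, 335 genes rose and 364 fell by at least 4-fold, and 75 rose and 68 fell by at least 16-fold. All 4 libraries of one day lay beyond all 4 of the other for 94.1% of the higher and 94.5% of the lower genes. Of all tested IDs, 17.1% had day 14 wholly above day 0 and 17.2% had it wholly below. There were 3296 IDs of this kind that did not pass the test.

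The number of calls differed with the libraries in the fit. With only these 8 libraries in the fit, 5793 genes passed (36% of 16095 tested), 3075 higher and 2718 lower. The common biological coefficient of variation was 0.290 in that fit and 0.445 with all 20. Dropping 4 widely spread libraries of days 10 and 18 from the larger fit (replicates 1 and 3 of each) gave 5924. In both smaller fits the balance turned, with 46.9% and 48.3% of calls lower on day 14 against 53.6%. Of the 2662 genes called with all 20 libraries, 2574 were also called, in the same direction, with the 8 alone, and 70 were not tested there. Those 2574 are 96.7% of the first list and 44.4% of the second. The genes that the smaller fit added had a median absolute log2 fold change of 0.86.

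Leaving out single libraries from the fit of 20 lowered the count by more than 1.5 times in 7 of 8 cases. It fell to 1515, 1016, 1438 and 1643 without day 0 replicates 1, 2, 3 and 4. It fell to 1225, 1289 and 1115 without day 14 replicates 1, 2 and 3. Without day 14 replicate 4, the library that stood apart, it was 2173, of which 1039 were higher and 1134 lower, with 571 changes of at least 4-fold. The count of changes of at least 4-fold was 344 without day 0 replicate 2 and 436, 424 and 401 without day 14 replicates 1, 2 and 3. In all, 810 genes kept their call and direction whichever of the 8 libraries was left out.

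**Figure D1:**
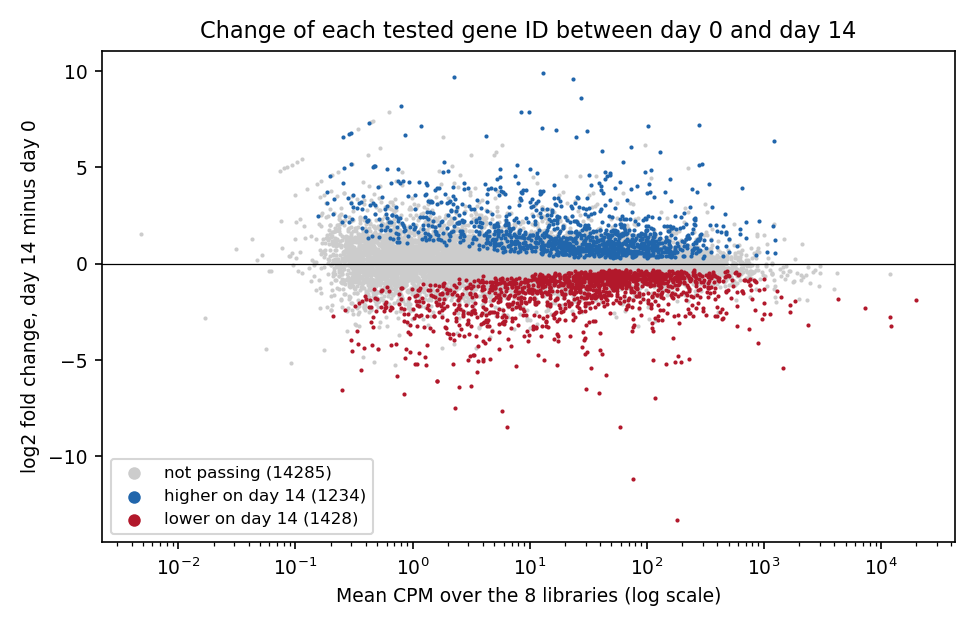
Each point is 1 of the 16947 tested gene IDs, placed by its mean CPM over the 8 libraries (x axis, log scale) and its log2 fold change from day 0 to day 14 (y axis). The 1234 higher and 1428 lower IDs spread over the whole range of abundance, while the points at the far right lie mostly below 0.

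The direction of change differed with abundance. Among the 217 IDs that averaged at least 500 CPM over the 8 libraries, 47 (21.7%) were lower on day 14 and 15 (6.91%) higher. Their median log2 fold change was -0.44, against 0.028 over all tested IDs. Of the 2091 IDs between 100 and 500 CPM, 281 were lower and 213 higher. Among the 3903 IDs between 5 and 20 CPM, 298 were lower and 293 higher. Of the 2849 IDs between 1 and 5 CPM, 194 were lower and 154 higher. These splits hold for the scaling used here, and those below 500 CPM changed with another scaling, given in the next paragraph. Under 1 CPM, 62 of 1973 IDs were lower and 89 higher, with medians of -2.38 and 2.53 on the log2 scale. Between 20 and 100 CPM, with 546 lower and 470 higher of 5914 IDs, the medians were -0.89 and 1.02.

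The balance of directions depended on how libraries were scaled. The values above use TMM (trimmed mean of M values), whose factors were 0.894 to 0.934 for the day 0 libraries and 1.03 to 1.10 for those of day 14. Day 14 lay above day 0 in every library (two-sided exact permutation p = 0.0286, the smallest that 4 against 4 allow; 0.0429 adjusted over the 3 per-library values tested). With total counts as the only scaling, the log2 fold change had a median of 0.25 over all tested IDs, against 0.028 with TMM. In that fit 2351 genes were higher and 846 lower, so that 73.5% were higher against 46.4%. All 1234 genes called higher with TMM were also called higher by total counts. Since total counts moved the log2 fold changes upward, this retention was favoured by the scaling itself. Of the 1428 called lower with TMM, 846 were also called lower by total counts. The log2 fold change by total counts was above 0 for 0 of the 1428. Of the 364 falls of at least 4-fold, 348 remained. In the class of at least 500 CPM, lower calls outnumbered higher ones with both scalings (35 against 25 by total counts). From 100 to 500 CPM the order turned, with 147 lower and 398 higher by total counts. It was 278 lower and 998 higher between 20 and 100 CPM, and 190 lower and 524 higher between 5 and 20 CPM. Between 1 and 5 CPM, 144 were lower and 270 higher by total counts. Under 1 CPM, 52 were lower and 136 higher.

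The genes called lower had held a far larger part of the counts than those called higher. On day 0 the genes called lower took 25.8%, 27.1%, 22.8% and 24.5% of the counts of replicates 1 to 4. On day 14 they took 9.78%, 9.69%, 9.79% and 10.1%. The mean went from 25.1% ± 1.87 to 9.83% ± 0.164 (SD, n = 4 each), and the groups lay far apart. The genes called higher took 4.37%, 3.81%, 4.35% and 4.49% on day 0 and 11.8%, 12.1%, 11.9% and 12.2% on day 14. Their mean went from 4.26% ± 0.301 to 11.98% ± 0.192 (SD, n = 4 each). All other IDs took 69.0% to 72.9% on day 0 and 77.8% to 78.5% on day 14. The shares of a library are parts of 1 total, so they do not move independently. The sets are those called with TMM, and total counts gave other sets. The genes were chosen on these libraries, so these shares describe the calls and were not tested. The genes that rose by at least 4-fold went from 0.297% ± 0.0460 to 2.78% ± 0.262 of counts. Those that fell by at least 4-fold went from 9.71% ± 1.18 to 1.62% ± 0.0485 (SD, n = 4 libraries a day).

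**Figure D2:**
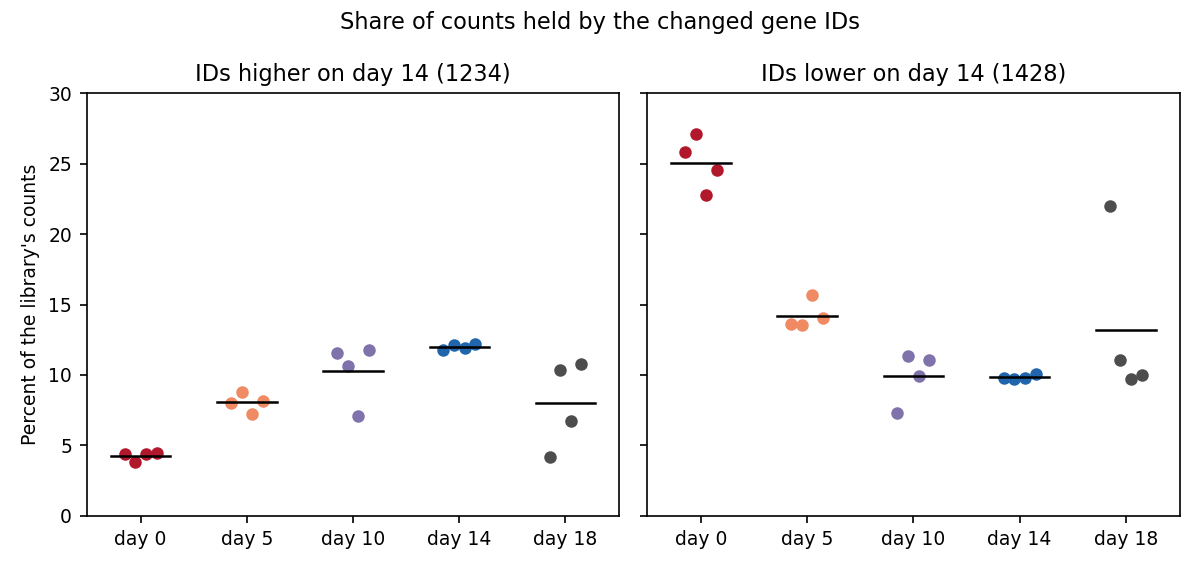
Percent of each library's counts (y axis) in the 1234 IDs higher (left) and the 1428 IDs lower (right) on day 14, by day; each point is 1 library and each bar the mean of 4. The day 0 libraries lie between 22.8% and 27.1% on the right, and those of day 14 between 9.69% and 10.1%.

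A few transcripts carried a large part of what was lost. Summed over the 1428 lower genes, mean CPM fell by 180891, and 12 IDs made up 50% of that fall. It took 156 IDs to reach 80% of the fall. It took 89 IDs to reach 50% of the summed rise of 65799 CPM over the 1234 higher genes. The 10 largest changes held 48.7% of the fall and 16.1% of the rise. These sums are in CPM scaled by TMM, so the size of the fall against the rise depends on that scaling. The 12 IDs averaged between 1687 and 31356 CPM on day 0, and 9 of them fell by at least 4-fold, from 3.53-fold to 43.0-fold over the 12. Together they took 11.0%, 11.5%, 8.66% and 10.2% of the counts of day 0 replicates 1 to 4. On day 14 they took 2.38%, 2.23%, 2.30% and 2.13%. The summed share varied more on day 0 than on day 14. The days did not overlap for any of the 12, nor for 94.5% of all 1428 lower genes, from which the 12 were taken. With total counts as the scaling, 11 of the 12 were still called lower. The 12 IDs held 4.19% ± 0.594 of day 5 counts and 2.12% ± 1.16 of day 10 counts (SD, n = 4 each). Day 18 replicate 1 had 8.31% and the other 3 libraries of that day 2.05% to 2.72%.

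The most abundant transcripts of estrus included many that fell and none that rose. Of the 50 IDs with the highest mean on day 0, 17 were lower on day 14, each by at least 2-fold and 12 of them by at least 4-fold, 0 were higher and 33 did not pass. Of the 50 highest on day 14, 8 were higher and 5 lower, 4 and 3 of them by at least 4-fold; 30 IDs were in both sets. Over all tested IDs, 8.43% were lower and 7.28% higher. Among IDs averaging at least 500 CPM over the 8 libraries, 21.7% were lower and 6.91% higher. The sets were chosen by level on 1 of the days compared, which favours falls in the first and rises in the second. Each library's own 50 most abundant IDs held 20.5%, 21.0%, 19.9% and 19.7% of its counts on day 0. On day 14 they held 11.3%, 12.2%, 11.0% and 11.3%. Without day 14 replicate 4 the difference was -8.79 percentage points. With all 8 libraries it was -8.82 and had a two-sided exact permutation p of 0.0286, or 0.0429 adjusted over 3 tests. It was lower in 4 of 4 day 14 libraries than in any from day 0. The number of IDs at 1 CPM or more averaged 14616 ± 64.8 at estrus and 14760 ± 125 at day 14 (SD, n = 4 each). There the exact permutation p was 0.114, so a difference was not shown.

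Under a strict rule on counts, few of the 27607 IDs were detected on 1 day alone. Only 7 IDs had at least 10 counts in every day 14 library and at most 3 counts over the 4 day 0 libraries, 1 of them with none. Conversely, 4 IDs had at least 10 counts in every day 0 library and at most 3 over day 14. All 7 of the former also had at least 10 counts in total on each of days 5, 10 and 18. Of the latter, 3 had as many at day 5, 1 at day 10 and 4 at day 18.

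ENSBTAG00000021466 was the most abundant ID of estrus and the most abundant to fall by at least 2-fold. It took 3.02%, 3.25%, 2.70% and 2.56% of all counts in day 0 replicates 1 to 4. In the day 14 libraries it took 0.992%, 0.891%, 0.896% and 0.862%. The day 0 mean was 31356 ± 3968 CPM and the day 14 mean 8499 ± 375 CPM (SD, n = 4 each). The days did not overlap, which was a condition for naming an ID. The log2 fold change was -1.88 (SE 0.51, edgeR adjusted p = 0.0226), a 3.69-fold fall. ENSBTAG00000021466 still ranked second by mean level on day 14. The adjusted p ranged from 1.51e-06 to 0.293 over 19 other settings, 14 of them below 0.05. Without day 0 replicate 2 it was 0.0573, and without day 14 replicates 1, 2 or 3 it was 0.0556, 0.0562 or 0.0619. Without day 14 replicate 4 it was 0.0457. Day 5 averaged 13871 ± 2586 CPM and day 10 averaged 7230 ± 4366 CPM (SD, n = 4 each). Day 18 replicate 1 had 32027 CPM and the others 6139 to 8386 CPM.

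ENSBTAG00000037768 had the largest fall. Its counts were 2926, 6911, 18296 and 5148 in day 0 replicates 1 to 4, or 364 ± 288 CPM (SD, n = 4). On day 14 it had 0, 3, 0 and 0 counts. The ratio of day 0 to day 14 was 11980 after scaling, with an exact 95% counting interval of 4099 to 58096. Such intervals are computed on counts summed over the libraries of each day, so they leave out the spread among animals. They cover counting error at most, and no source used here mentions molecular identifiers. The fit put the log2 fold change at -13.31, with SE 1.73 (edgeR adjusted p = 6.81e-04), a value that moves with the prior count. ENSBTAG00000037768 passed in all 19 other settings, with adjusted p from 3.07e-14 to 0.00690 and 0.00341 without day 14 replicate 4. Day 10 had 2 counts over its 4 libraries. On day 18 the libraries held 282, 80, 50 and 1 counts.

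Of the genes with higher levels on day 14, ENSBTAG00000001246 was the most abundant to change by at least 2-fold. It measured 531, 612, 1086 and 693 CPM in day 0 replicates 1 to 4 and 1766, 1619, 1824 and 1763 CPM on day 14. The highest day 0 library lay below the lowest of day 14, which was a condition for naming an ID. The means were 731 ± 246 and 1743 ± 86.9 CPM (SD, n = 4 each). The log2 fold change was 1.25 (SE 0.25, edgeR adjusted p = 0.00600), a 2.39-fold rise. It passed in 18 of 19 other settings, with adjusted p from 1.69e-06 to 0.622, the last when tested against a 2-fold change, and 0.0128 without day 14 replicate 4. ENSBTAG00000001246 averaged 1410 ± 107 CPM at day 5 and 1898 ± 337 CPM at day 10 (SD, n = 4 each). Day 18 averaged 1601 ± 552 CPM (SD, n = 4), and its replicate 1, at 843 CPM, lay within the day 0 range.

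ENSBTAG00000039260 had the largest rise, and its values differed widely among day 14 libraries. It had 0, 0, 2 and 0 counts in day 0 replicates 1 to 4, and 105, 114, 697 and 1600 on day 14. The ratio was 1165 with an exact 95% counting interval of 322 to 9624, which also leaves out the spread among animals. The fitted log2 fold change was 9.90 (SE 2.97, edgeR adjusted p = 0.0343). Only 11 of 19 other settings kept it below 0.05, with adjusted p from 1.38e-05 to 0.172. Without day 0 replicates 1, 2, 3 or 4 it was 0.0788, 0.0910, 0.0917 or 0.0785, and without day 14 replicates 1, 3 or 4 it was 0.0502, 0.0617 or 0.0612. The highest day 14 value, 67.0 CPM, was that of replicate 4, the library that stood apart. ENSBTAG00000039260 reached 629 and 609 CPM in day 10 replicates 1 and 3 and 1036 CPM in day 18 replicate 3. The other 5 libraries of those days had 0.930 to 8.999 CPM.

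**Figure D3:**
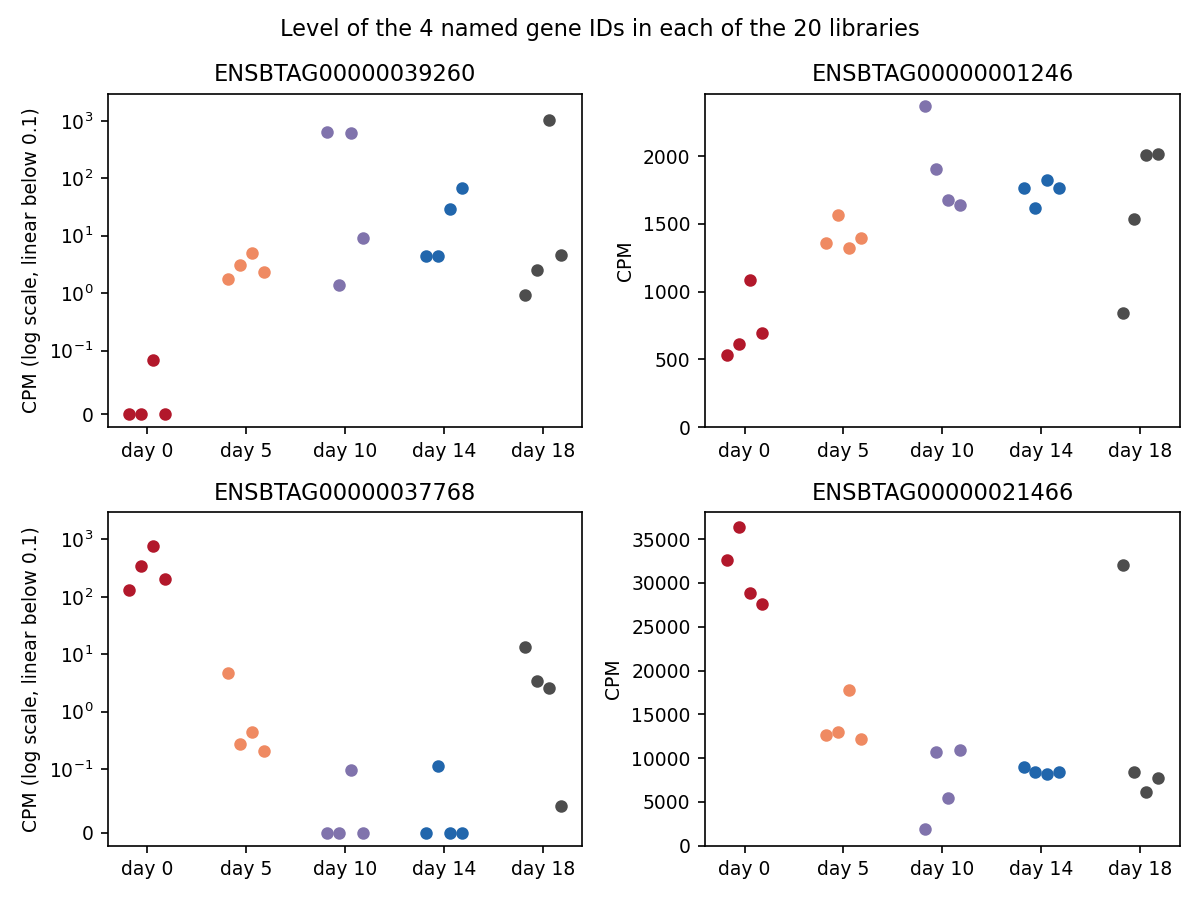
CPM (y axis) of 4 gene IDs in each of the 20 libraries by day; the left panels use a log axis that is linear below 0.1, the right panels a linear axis from 0. For ENSBTAG00000021466 the day 14 libraries sit between 8142 and 9027 CPM and those of day 0 between 27554 and 36380 CPM.

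The calls were then read in libraries that had no part in choosing them. Each of the 8 libraries was left out, the test was run on the other 7, and the left-out library was placed against the midpoint of both days' means for every called gene. Between 4024 and 6745 genes were called in these fits. For 7 of the 8 libraries, 81.6% to 96.8% of the higher genes lay on the side of the library's own day. Among the lower genes, 82.0% to 97.4% did so in the same 7. Day 14 replicate 4 was the exception, with 64.1% of higher and 70.9% of lower genes on the day 14 side. On a scale with the day 0 mean at 0 and the day 14 mean at 1, its median position was 0.72 for higher and 0.79 for lower genes. The other day 14 libraries lay between 0.94 and 1.02. The fit without day 14 replicate 4 gave the most calls, 3284 higher and 3461 lower. Each library's percentages are over its own set of called genes, so they are not a comparison on the same genes.

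**Figure D4:**
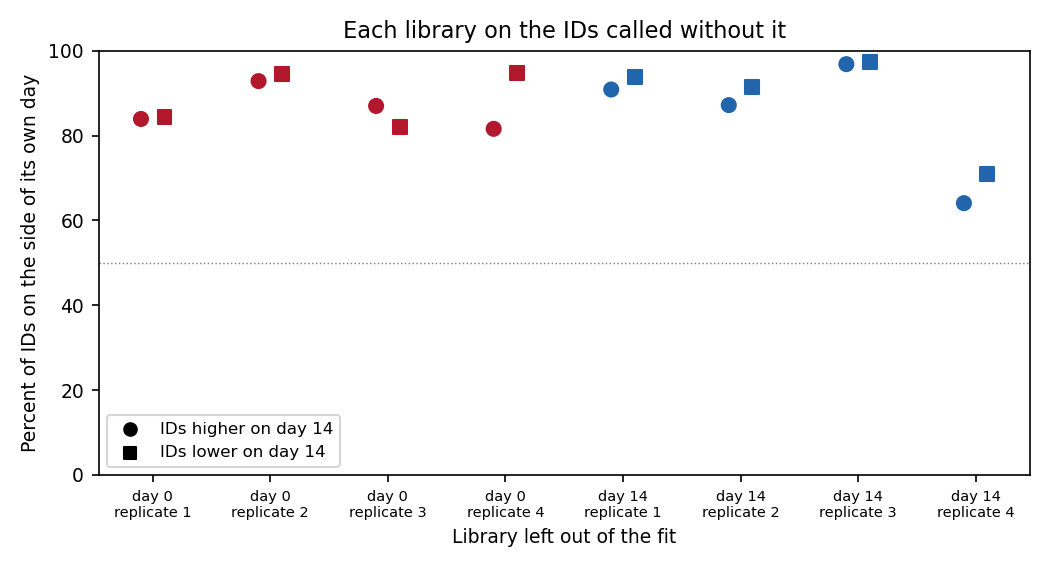
Percent of gene IDs (y axis) on which each library (x axis) lay on the side of its own day, for IDs called without that library; circles are IDs higher and squares IDs lower on day 14. Day 14 replicate 4 sits at 64.1% and 70.9%, and the other 7 libraries lie at 81.6% or more.

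The intermediate days were placed in the same way on another set of genes, those called by the fit of the 8 libraries alone with a change of at least 2-fold. No library of days 5, 10 or 18 entered that choice. Among the 1601 higher genes, the day 5 mean was nearer to day 14 than to day 0 for 60.4%, the day 10 mean for 77.3% and the day 18 mean for 50.8%. Among the 1242 lower genes these shares were 61.8%, 85.3% and 79.8%. Levels on all 3 intermediate days were on the day 14 side for 486 of the higher (30.4%) and 649 of the lower genes (52.3%). For 167 higher and 51 lower genes none of the 3 days had crossed the midpoint. Another 419 higher and 337 lower genes had crossed by day 10 but not by day 5. Day 14 held the highest of the 5 means for 941 of the higher genes, day 10 for 379, day 5 for 236 and day 18 for 45. The lowest mean of the lower genes fell on day 14 for 589, day 10 for 512, day 5 for 71 and day 18 for 70. Since the genes were chosen to be extreme on day 14 or day 0, other days tend to fall between them, and these shares were not tested.

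Libraries of day 18 differed more among themselves than those of day 5 on these genes. On day 5, 54.7% to 62.8% of the higher genes and 49.0% to 66.6% of the lower genes were on the day 14 side in each library. Day 10 libraries had 72.6%, 70.6%, 47.5% and 83.6% of higher genes there in replicates 1 to 4. Of the lower genes they had 79.6%, 81.6%, 69.2% and 88.3%. For the higher genes, day 18 libraries had 16.6%, 80.4%, 43.7% and 82.0%. For the lower genes the day 18 libraries had 33.0%, 88.6%, 69.9% and 94.8%. Day 18 replicate 1 was thus nearer to estrus on most of these genes, and replicates 2 and 4 were nearer to day 14.

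**Figure D5:**
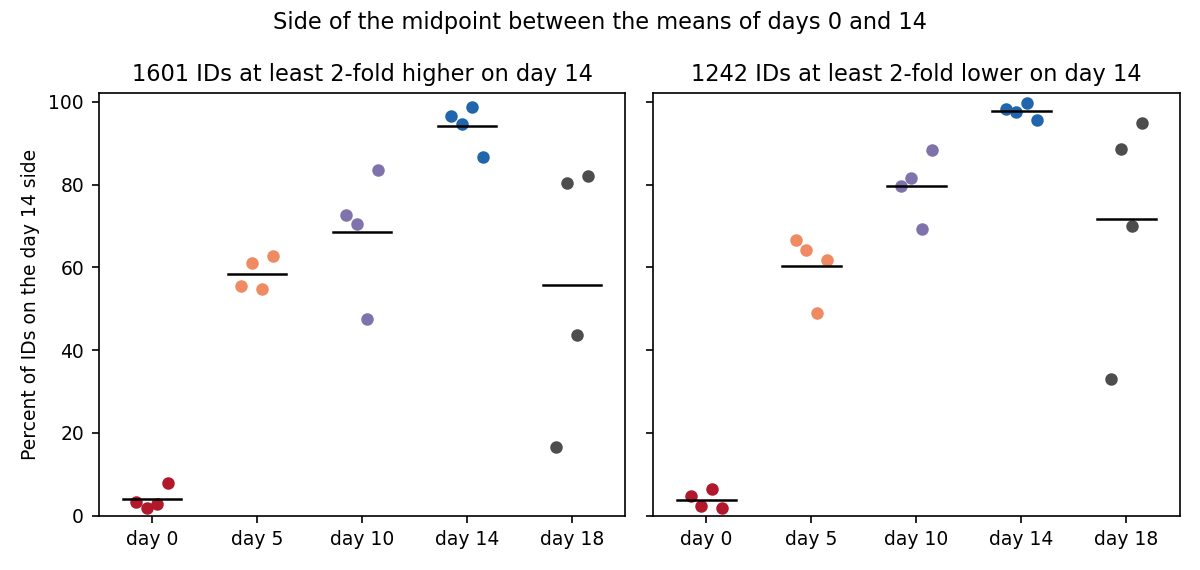
Percent of gene IDs (y axis) whose level in a library was on the day 14 side of the midpoint between the means of days 0 and 14, for 1601 higher (left) and 1242 lower IDs (right); points are libraries and bars their mean. Day 5 libraries lie at 49.0% to 66.6%, while day 18 libraries range from 16.6% to 94.8%.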

How the data were processed

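Per the labels' protocols, RNA was extracted with the RNAqueous Micro kit, captured by poly(A) and prepared with an Illumina TruSeq stranded kit. FastQC, STAR and edgeR are named, without versions, per the submitters' processing notes. Build, annotation, counting program and use of strand are not given in the sources used, so overlapping, antisense or near-identical genes may share reads. The deposited values are raw counts per gene ID, with 1 sample to a file per the file headers.

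IDs with low counts were removed by filterByExpr over all 20 libraries, which left 16947. Counts were scaled by TMM factors and fitted in edgeR 4.0.16 (R 4.3.3) by the robust quasi-likelihood model with 1 mean per day; the contrast was day 14 minus day 0. Adjusted p-values are Benjamini-Hochberg over all tested IDs. The SE is the log2 fold change divided by the square root of F, and log2 CPM used a prior count of 2. Per-library values were compared by exact permutation over the 8 libraries. Alternatives were DESeq2 1.42.0, limma 3.58.1 voom, other scalings and filters, a replicate block, the 8 libraries alone, a 2-fold test and each library left out. The script was tested on simulated data.

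With no gene names, the rule named 2 IDs per direction: the largest change and the highest mean CPM (at least 2-fold) among IDs with adjusted p under 0.05, at least 5 CPM and no overlap. Planned gene lists were not run. The comparison, lists and rules were chosen with earlier results of these data known. Same-day libraries differed by a chi-square of 27.3 to 173 per degree of freedom, so none was treated as 1 library deposited more than 1 time. Figures used matplotlib 3.10.9 and Python 3.11.15.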

Additional observations from a re-analysis of the deposited data

Results flagged for a closer look

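Among 65 groups of 4 libraries examined, 9 had a value far from the other 3. Chance gives about 1 in 20 for independent, normally distributed values. The groups share genes and libraries, and some hold counts in a single library only, so that rate does not apply here. Day 18 replicate 1 had 22.0% of its counts in the genes lower on day 14, against 9.70% to 11.0% in the other day 18 libraries. The genes that fell by at least 4-fold held 7.35% of its counts, against 1.53% to 2.20%. The same library had 32027 CPM of ENSBTAG00000021466, against 6139 to 8386 CPM. Day 5 replicate 3 had 17722 CPM of ENSBTAG00000021466, against 12178 to 12926 CPM in its day.

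ENSBTAG00000039260 reached 1036 CPM in day 18 replicate 3, against 0.930 to 4.58 CPM in the others. Its 0.0849 CPM in day 0 replicate 3 came from 2 counts, with 0 in the other 3. ENSBTAG00000037768 was at 4.78 CPM in day 5 replicate 1, against 0.206 to 0.445 CPM. Its 0.0990 CPM in day 10 replicate 3 came from 2 counts and its 0.115 CPM in day 14 replicate 2 from 3 counts, with 0 in the other libraries of each day.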

How the results depend on the processing

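No gene called in the reported fit was called in the opposite direction in any of the 19 other settings, and 759 genes (328 higher, 431 lower) passed in all but the test against a 2-fold change. The count of 2662 became 3998 with DESeq2, 8228 with limma voom, 5793 with the 8 libraries alone, 5924 without 4 spread libraries of days 10 and 18 (chosen after the data were seen) and 124 (45 higher, 79 lower) against a 2-fold change. It was 1016 to 2173 with single libraries left out. Changes of at least 4-fold numbered 699, then 1072 without those 4 libraries, 119 against a 2-fold change and 344 to 571 with single libraries left out. Lower genes made up 53.6% of calls, then 55.6% with RLE factors, 26.5% with total counts, 49.0% with voom, 46.9% with the 8 libraries, 63.7% against a 2-fold change, 48.3% without the 4 libraries and 51.6% to 60.9% with single libraries left out. The cause of these moves was not tested. The test against a 2-fold change asks for a larger change by its definition. With a replicate block 2934 genes passed; same-numbered libraries of both days correlated at 0.133, -0.254, 0.0949 and 0.0455 in their deviations, and 2 of 4 day 0 libraries correlated best with their own number, so the numbers were not taken as pairs. The difference in the share of the most abundant IDs was -7.19 percentage points for 10 IDs and -9.22 for 100, and -9.07 to -8.58 with single libraries left out; as the days do not overlap, its p is the smallest possible there and says nothing of stability. The number of IDs at 1 CPM did not pass in any setting run, with 334 more on day 14 with unscaled totals, against 144. Depth limits the folds of genes with counts near 0 on one day.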

Other observations

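Genes lower on day 14 varied less there than at estrus. Their median SD of log2 CPM over 4 libraries was 0.274 on day 0 and 0.235 on day 14, and the SD was greater on day 14 for 39.4% of them. It was greater on day 14 for 53.6% of the higher genes and 54.6% of those not called. The test that chose the genes also reads this spread, so these values are a description.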
